A study of Mus musculus with 2 samples.

Results

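The genes described here are the microglial receptor Trem2, its adaptor Tyrobp and 5 proteins that carry or restrain the signal behind them: Syk, Plcg2, Vav1, Pik3ap1 and Inpp5d. They were chosen by symbol, 7 of the 31053 genes of the count matrices, and all 7 were found in both libraries. The cells came from the cortex of male mice hemizygous for 5xFAD on a C57BL/6J background, taken at 5.5 months. 5xFAD is an amyloid model in which mutant human transgenes are expressed from a neuronal promoter, and both groups carried it. No mice without the transgenes are in the comparison. The photoconversion group received 5 uL Visudyne, a photosensitiser, and then 5 steps of light at 689 nm through the skull, which ablates meningeal lymphatic vessels. The control group received the same volume of Visudyne without the light. Injections began at 4 months of age and were repeated after 3 weeks, and brains were taken 3 weeks after that. In each group 3 mice were pooled into 1 library of sorted CD45+ CD11b+ cells, without dead cells and without Ly6G+ cells. With 1 library per group no test between conditions was possible, so every difference below is one between these libraries. The 95% intervals cover counting error only, not the spread between cells or between mice.

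Trem2 is a surface receptor of microglia that binds lipids, lipoproteins and amyloid. It has no signalling tail of its own and pairs with Tyrobp, also called DAP12, whose cytoplasmic motif is phosphorylated and then binds the kinase Syk. Syk in turn engages the phospholipase Plcg2, which releases calcium, the exchange factor Vav1, which acts on the actin cytoskeleton, and Pik3ap1, an adaptor for phosphoinositide 3-kinase. Inpp5d, also called SHIP1, is a lipid phosphatase that works against that kinase. In mouse amyloid models, microglia around plaques lower homeostatic genes such as P2ry12 and raise others such as Cst7, and loss of Trem2 or Tyrobp limits that change.

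In mm10 Trem2 lies on chromosome 17 from 48346401 to 48354147 and Vav1 on the same chromosome from 57279100 to 57328031. Tyrobp lies on chromosome 7 (30413760 to 30417585), Syk on 13 (52583173 to 52648792), Plcg2 on 8 (117498291 to 117635142), Pik3ap1 on 19 (41272377 to 41385102) and Inpp5d on 1 (87620312 to 87720507). All are protein-coding, Pik3ap1 is on the minus strand and the other 6 on the plus strand, and no exon of another annotated gene overlaps theirs. The 250 bases before the start of the gene were found in RefSeq (GRCm38.p6) for 6 of the 7, Tyrobp having no entry in the table used. They were searched on both strands for GAGGAAG, the core of the binding motif of PU.1, the factor that directs microglial development. Trem2, Vav1, Pik3ap1 and Inpp5d held 1 match each, while Syk and Plcg2 held none. Across 32851 promoters of the same length 10.6% held the letters. The promoters of Trem2 and of Vav1 and Inpp5d are shown because these genes share the letters and, in CPM though not in UMIs per cell, stood in opposite order between the cell classes described below. Capitals mark the match, which is on the opposite strand in Trem2 and reads CTTCCTC there.
Trem2 chr17:48346151-48346400 (plus strand): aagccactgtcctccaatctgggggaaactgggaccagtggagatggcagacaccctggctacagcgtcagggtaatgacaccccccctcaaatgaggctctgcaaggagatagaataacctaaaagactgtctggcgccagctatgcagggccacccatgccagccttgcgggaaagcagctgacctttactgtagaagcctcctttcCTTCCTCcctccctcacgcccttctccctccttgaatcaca
Vav1 chr17:57278850-57279099 (plus strand): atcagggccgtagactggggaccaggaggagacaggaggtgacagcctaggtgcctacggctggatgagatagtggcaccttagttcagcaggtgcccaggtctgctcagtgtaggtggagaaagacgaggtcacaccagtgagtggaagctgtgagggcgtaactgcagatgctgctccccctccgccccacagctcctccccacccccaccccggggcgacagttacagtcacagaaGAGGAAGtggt
Inpp5d chr1:87620062-87620311 (plus strand): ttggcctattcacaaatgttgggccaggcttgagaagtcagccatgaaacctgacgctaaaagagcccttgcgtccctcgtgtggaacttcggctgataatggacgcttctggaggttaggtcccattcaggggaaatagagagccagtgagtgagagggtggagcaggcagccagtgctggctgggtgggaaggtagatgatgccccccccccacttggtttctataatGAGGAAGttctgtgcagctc

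The match began 41 bases before the start in Trem2, 20 in Inpp5d and 11 in both Vav1 and Pik3ap1. In Vav1 and Inpp5d it runs into GGAAGT, a shorter core of the same family that 19.7% of promoters hold. Trem2 also held 1 match to the AP-1 motif TGANTCA, 9 bases before the start, which 6.75% of promoters hold. TATAAA and TCACGTGA were in none of these windows. A match describes the letters only and was not linked to binding in these data.

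Cells were barcodes in which 200 or more genes were detected and no more than 10% of UMIs were mitochondrial. A UMI is a molecular tag that marks 1 captured RNA molecule. Of 2000 barcodes per library, 317 passed after photoconversion (median 3410 UMIs) and 555 in the control (median 2670 UMIs). The libraries shared 27 barcode sequences, and their kept cells shared 0. The label of microglia was met: all 10 microglia markers were detected in each library, with a summed level of 51075 CPM (UMIs per 1000000 UMIs of the same cells) after photoconversion and 53283 in the control. Neutrophil markers summed to 9 and 5 UMIs, and lymphocyte markers to 24 and 47. Border macrophage markers summed to 9.91 and 39.6 CPM, with Lyve1 at 0 in both, and monocyte markers to 15.97 and 79.3, with Vcan at 0 in both. Endothelial and mural markers summed to 1093 and 1086 CPM, astrocyte markers to 235 and 255, oligodendrocyte markers to 144 and 176, and neuron markers to 11.6 and 11.1. The part of these differences in the values below was not tested. In the cells whose leading markers were those of microglia, 305 photoconversion and 540 control cells, the ratios of photoconversion to control were 1.06 for Trem2 and 1.11 for Tyrobp.

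Trem2 and Tyrobp were detected in nearly every cell of both libraries. Trem2 had a UMI in 306 of 317 photoconversion cells (96.5%) and in 518 of 555 control cells (93.3%), and Tyrobp in 98.7% and 96.0%. The 11 photoconversion and 37 control cells without a Trem2 UMI were mostly shallow, with medians of 634 and 493 UMIs. However, 2 of the 11 and 10 of the 37 had at least 1000 UMIs, and microglia markers led in 8 of those 10 control cells. Microglia markers led in 6 of the 11 and 29 of the 37. In the 10 cells of each library that were led by vascular or neural markers, with medians of 745 and 664.5 UMIs, Trem2 stood at 461 and 444 CPM. Tyrobp stood at 1094 and 1199 there. The levels in these 10 cells lay far below those of the kept cells as a whole. Barcodes under 200 genes, which were left out, stood nearer to the kept cells. Trem2 stood at 3337 CPM in them after photoconversion and 3215 in the control, and Tyrobp at 5037 and 4482. Which of these is the background of the assay was not tested.

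Trem2 gave 10245 UMIs after photoconversion and 12797 in the control, or 5641 and 5282 CPM. The ratio of photoconversion to control was 1.07 (1.04 to 1.10). Tyrobp stood at 10683 CPM after photoconversion and 9640 in the control, a ratio of 1.11 (1.09 to 1.13). Receptor and adaptor were thus both slightly higher in the photoconversion library, within the 1.5-fold used here as the limit of a call.

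The kinase and the effectors were sparse. Syk, the kinase that docks on Tyrobp, had 26 UMIs after photoconversion and 50 in the control, or 14.3 and 20.6 CPM, a ratio of 0.694 (0.414 to 1.14). Plcg2 had 63 and 94 UMIs, or 34.7 and 38.8 CPM, a ratio of 0.894 (0.639 to 1.24). Vav1 had 136 and 243 UMIs, or 74.9 and 100.3 CPM, a ratio of 0.747 (0.601 to 0.925). Only for Vav1 among these 3 did the counting interval leave out 1. Inpp5d, the phosphatase, had 233 UMIs after photoconversion and 372 in the control, or 128 and 154 CPM, a ratio of 0.836 (0.706 to 0.987). Pik3ap1 had 5 and 12 UMIs, too few for a ratio. The share of cells with a UMI was 40.7% and 39.8% for Inpp5d, 27.4% and 31.5% for Vav1, 15.1% and 13.3% for Plcg2, and 7.57% in either library for Syk. The 10 cells per library led by vascular or neural markers held 17361 and 22510 UMIs in all, too few to give a background for these 4 genes, which had 0 UMIs there. The kept photoconversion cells were deeper than the control cells, and a share of cells with a UMI moves with depth.

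A gene was called when its level differed at least 1.5-fold and the sums compared held at least 50 UMIs together. Of the 7 members 6 were measured by that rule, and 0 of the 6 were called between photoconversion and control, where 9.61% of 6256 measured genes were (3.1% higher and 6.51% lower). Their median log2 ratio was -0.21, against -0.07 over all measured genes. The libraries also differed in the classes of cells they held. Cells with more Cst7 than P2ry12 UMIs, here called Cst7-dominant, were 157 of 290 photoconversion cells that could be classed (54.1%, 48.2 to 59.98%). In the control they were 207 of 497 (41.7%, 37.3 to 46.1%). With both classes weighed equally, the log2 ratio of photoconversion to control was -0.005 for Trem2 and 0.05 for Tyrobp.

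Within the Cst7-dominant cells, Trem2 stood at 6305 CPM after photoconversion and 6055 in the control, a ratio of 1.04 (1.01 to 1.07). Within the P2ry12-dominant cells, those with more P2ry12 than Cst7 UMIs, it stood at 3999 and 4285, a ratio of 0.933 (0.882 to 0.987). Tyrobp had ratios of 1.02 (0.998 to 1.04) and 1.07 (1.02 to 1.12) in these classes. Inpp5d stood at 112 CPM after photoconversion and 103 in the control in Cst7-dominant cells, a ratio of 1.09 (0.863 to 1.38). In P2ry12-dominant cells it stood at 182 and 249, a ratio of 0.731 (0.561 to 0.945). Vav1 had ratios of 0.886 (0.661 to 1.18) and 0.704 (0.496 to 0.988), and Plcg2 0.860 (0.529 to 1.38) and 1.09 (0.660 to 1.76). Again 0 of the 5 members measured in each class were called, where 9.31% of genes were in Cst7-dominant cells (4.26% higher and 5.04% lower) and 12.6% in P2ry12-dominant cells (3.92% higher and 8.68% lower). The intervals of Vav1 and Inpp5d left out 1 in P2ry12-dominant cells and held 1 in Cst7-dominant cells, and the difference between the classes was not tested.

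The larger differences lay between the classes of cells inside each library. The classes were set by 2 genes that are not among the 7, and the same cell classes were compared separately in each library. Tyrobp stood at 12517 CPM in Cst7-dominant and 5805 in P2ry12-dominant cells of the photoconversion library, a ratio of 2.16 (2.07 to 2.25). In the control library it stood at 12275 and 5422, a ratio of 2.26 (2.19 to 2.34). Trem2 stood at 6305 in Cst7-dominant and 3999 in P2ry12-dominant photoconversion cells, a ratio of 1.58 (1.499 to 1.66). In the control it stood at 6055 and 4285, a ratio of 1.41 (1.36 to 1.47). For both genes the 4 groups came in the same order of class, with every Cst7-dominant value above every P2ry12-dominant one. The counting intervals did not overlap between classes, but the share of all genes separated in this way was not counted. Between the classes, 41.2% of genes after photoconversion and 43.5% in the control differed at least 1.5-fold. Tyrobp lay above 95.6% of measured genes by its class ratio after photoconversion and above 97.1% in the control, and Trem2 above 88.7% and 86.0%.

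In CPM, the phosphatase and the 2 measured effectors stood lower in Cst7-dominant cells, although in UMIs per cell Vav1 and Inpp5d stood higher there in both libraries and Plcg2 in the control. Inpp5d stood at 112 CPM in Cst7-dominant and 182 in P2ry12-dominant photoconversion cells, a ratio of 0.617 (0.469 to 0.816). In the control it stood at 103 and 249, a ratio of 0.414 (0.333 to 0.513). Vav1 stood at 66.4 and 104.8 after photoconversion, a ratio of 0.634 (0.442 to 0.919), and at 74.98 and 149 in the control, a ratio of 0.504 (0.387 to 0.657). Plcg2 stood at 25.2 and 62.0 after photoconversion, a ratio of 0.406 (0.239 to 0.693), and at 29.3 and 57.1 in the control, a ratio of 0.513 (0.332 to 0.791). The intervals of all 3 ratios left out 1 in both libraries. The share of all genes with such intervals was not counted, and 41.2% and 43.5% of genes differed at least 1.5-fold between the classes. Syk, with 17 and 9 UMIs after photoconversion and 26 and 21 in the control, was below the minimum for a call and had ratios of 0.674 (0.284 to 1.72) and 0.709 (0.384 to 1.33). Pik3ap1 had 4 and 1 UMIs in the classes of the photoconversion library, and 7 and 5 in those of the control.

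**Figure D1:**
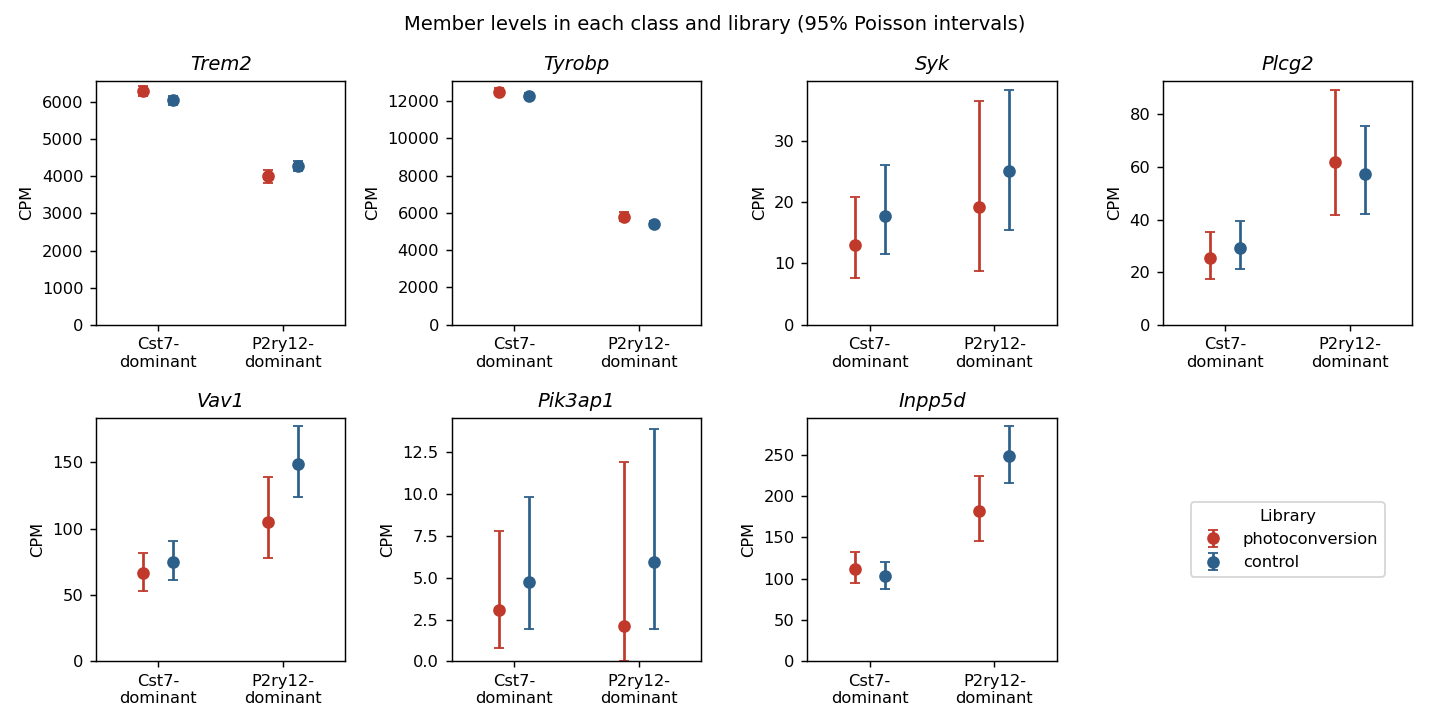
Level of each of the 7 genes in CPM (vertical axis, starting at 0) in Cst7-dominant and P2ry12-dominant cells of the photoconversion (red) and control (blue) library, with 95% Poisson intervals of the summed counts. Trem2 and Tyrobp were higher in Cst7-dominant cells of both libraries, while Plcg2, Vav1 and Inpp5d were lower in CPM, though per cell Vav1 and Inpp5d were higher in both libraries and Plcg2 in the control, and Syk and Pik3ap1 had intervals that overlap.

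By the rule of 1.5-fold, 5 of the 5 measured members were called in the photoconversion library, 2 higher and 3 lower, where 41.2% of genes were called, 13.6% higher and 27.6% lower. In the control 4 of 5 were called, 1 higher and 3 lower, where 43.5% of genes were, 11.3% higher and 32.2% lower, and Trem2 at 1.41 was the one left out. These counts describe 5 genes and were not tested. Of the genes measured in both libraries 8.0% were called higher in both, as Tyrobp was. The share called lower in both, as Plcg2, Vav1 and Inpp5d were, was 19.8%. The classes differed in more than these genes. Median UMIs per cell were 5852 in Cst7-dominant and 2739 in P2ry12-dominant photoconversion cells, and 4655 and 2206.5 in the control. Malat1, a nuclear RNA, took 7561 and 24621 CPM in the classes after photoconversion, and 6456 and 24797 in the control. Ribosomal protein genes took 22.9% and 15.7% of UMIs after photoconversion, and 22.2% and 14.2% in the control. The part of these in the class ratios was not tested.

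Because the scaling differed, the ratios were also taken on other scales. TMM scaling, which trims extreme genes, moved all class log2 ratios up by 0.35 after photoconversion and 0.36 in the control, against medians over all genes of -0.15 and -0.29. Trem2 then had ratios of 2.005 and 1.82 and Tyrobp 2.74 and 2.91. Inpp5d had 0.785 and 0.533, Vav1 0.806 and 0.649, and Plcg2 0.517 and 0.660, so that each kept its direction. The calls were then 2 higher and 1 lower after photoconversion, and 2 higher and 3 lower in the control. The share of all genes called under TMM is not given here, so these counts describe the members only. In UMIs per cell, with no scaling, Cst7-dominant cells held 3.74 and 3.46 times the Trem2 and 5.12 and 5.54 times the Tyrobp of P2ry12-dominant cells. On that scale Vav1 was also higher in them, at 1.504 and 1.23 times, and Inpp5d at 1.46 and 1.01 times, while Plcg2 was at 0.964 and 1.25 times. Receptor and adaptor thus stood higher in Cst7-dominant cells on each of these scales, whereas Vav1 and Inpp5d were lower in CPM and under TMM and higher in UMIs per cell.

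**Figure D2:**
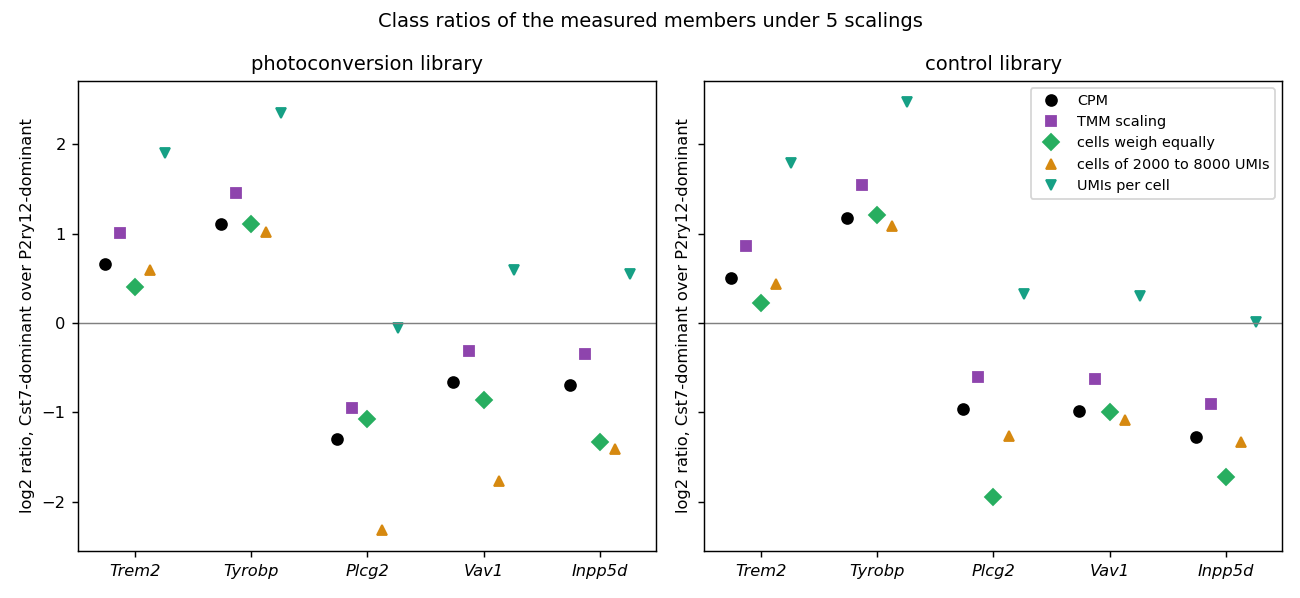
The log2 ratio of Cst7-dominant to P2ry12-dominant cells (vertical axis, 0 is no difference) for the 5 genes measured in the full classes. Photoconversion is on the left and control on the right, with 1 symbol for each of 5 ways of scaling or choosing cells. In photoconversion cells of 2000 to 8000 UMIs, not all 5 genes reached the minimum of UMIs for a call. Trem2 and Tyrobp lie above 0 under each, and Plcg2, Vav1 and Inpp5d lie below 0 except in UMIs per cell, where Vav1 and Inpp5d lie above it in both libraries and Plcg2 in the control.

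The order of the classes depended on depth for Trem2 and did not for Tyrobp. Each class was cut into 3 equal parts by UMIs per cell. In the shallowest cells Trem2 stood at 4983 CPM in Cst7-dominant and 4904 in P2ry12-dominant photoconversion cells, and at 4475 and 5335 in the control, where the order was turned. In the deepest cells it stood at 6500 and 3464 after photoconversion, and at 6302 and 3714 in the control. So Trem2 was higher in deeper Cst7-dominant cells and lower in deeper P2ry12-dominant cells, and the classes parted with depth. Tyrobp was separated in each part: in the shallowest cells it stood at 10578 and 4081 after photoconversion and at 10857 and 4085 in the control. In the deepest it stood at 13125 and 6008, and at 12683 and 5826. Inpp5d was lower in Cst7-dominant cells in each part, with 69.2 and 302 CPM in the shallowest photoconversion cells and 81.2 and 463 in the shallowest control cells. In the deepest cells it stood at 125 and 148 after photoconversion, with intervals that overlap, and at 106 and 197 in the control. The parts do not cover the same depths in the 2 classes, since the shallowest Cst7-dominant cells reach 3525 UMIs after photoconversion and the shallowest P2ry12-dominant cells 2138.

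**Figure D3:**
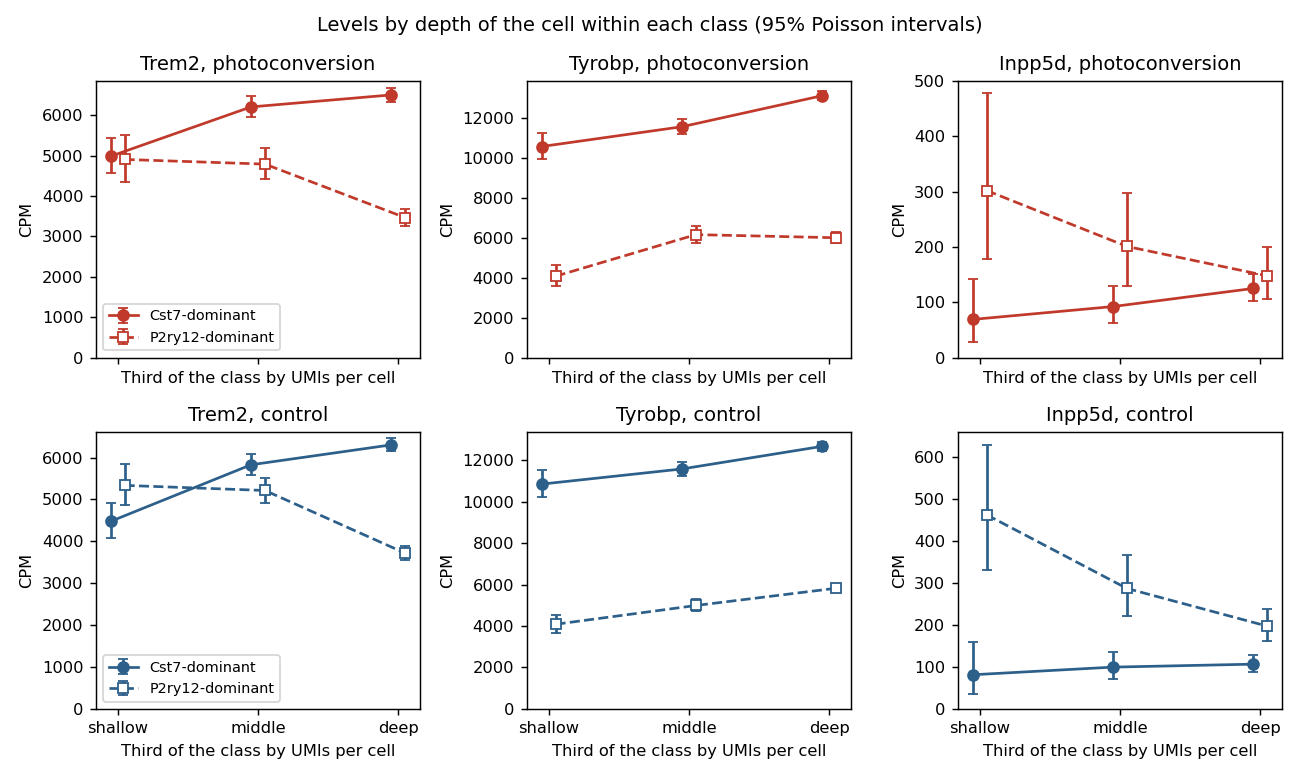
Trem2, Tyrobp and Inpp5d in CPM (vertical axis, starting at 0) over the shallow, middle and deep part of each class by UMIs per cell (horizontal axis), for Cst7-dominant (filled circles) and P2ry12-dominant cells (open squares) in the photoconversion library (top) and the control library (bottom), with 95% Poisson intervals. Trem2 of the classes is close in shallow cells, with 4983 and 4904 after photoconversion, and apart in deep cells, while Tyrobp is apart in every part.

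In cells of 2000 to 8000 UMIs, a range both classes reach, the class ratio of Trem2 was 1.504 after photoconversion and 1.36 in the control, and that of Tyrobp 2.03 and 2.13. Inpp5d had ratios of 0.377 and 0.397 in the same cells, Vav1 0.294 and 0.471, and Plcg2 0.202 and 0.418. The photoconversion library held 62 Cst7-dominant and 84 P2ry12-dominant cells in this range. There, most of these last genes were below the minimum of UMIs for a call. Their photoconversion ratios are therefore not read as larger differences than those of the full classes. When each cell counted equally, Trem2 had ratios of 1.33 and 1.17 and Tyrobp 2.15 and 2.32. The class ratio of Tyrobp was above 2 in both of these.

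The receptor and its adaptor were not in one proportion. For every 100 Tyrobp UMIs there were 50.4 Trem2 UMIs (49.0 to 51.7) in Cst7-dominant and 68.9 (64.9 to 73.1) in P2ry12-dominant photoconversion cells. In the control there were 49.3 (48.1 to 50.6) and 79.0 (75.6 to 82.6). This ratio needs no scaling by total UMIs, but among P2ry12-dominant cells it moved strongly with depth. In the shallowest, middle and deepest of them it was 120.2, 77.7 and 57.7 after photoconversion, and 130.6, 104.4 and 63.7 in the control. In Cst7-dominant cells it was 47.1, 53.6 and 49.5 after photoconversion, and 41.2, 50.3 and 49.7 in the control. The P2ry12-dominant cells of the control were also the shallower ones, with a median of 2206.5 UMIs, against 2739 after photoconversion, and the part of depth in the library difference was not tested. In cells of neither class, 27 and 58 in number, it was 39.9 (31.9 to 49.6) and 39.6 (34.7 to 45.2). There the 10 richest cells held 83.8% and 79.9% of the Trem2 UMIs, endothelial and mural markers summed to 4462 and 814 CPM, and monocyte markers to 51.6 and 1239 CPM.

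Cells were also ordered between the classes. Cells with at least 5 UMIs of Cst7 and P2ry12 together, 242 after photoconversion and 393 in the control, were ordered by the Cst7 part of that sum in steps of 20%. From the lowest to the highest step Tyrobp stood at 5815, 5459, 10185, 11724 and 13426 CPM after photoconversion. In the control it stood at 5208, 6511, 10647, 10806 and 13551. The main step came where the Cst7 part passed 40%, in both libraries. Trem2 stood at 4010, 3564, 5545, 6680 and 6367 after photoconversion, and at 4434, 4664, 5480, 5626 and 6509 in the control, a smaller span. Inpp5d stood at 183, 180, 126, 150 and 94.5 after photoconversion, and at 282, 188, 85.5, 119 and 94.8 in the control. Trem2 and Tyrobp after photoconversion, and Inpp5d in either library, did not move in 1 direction throughout. The second step of the photoconversion library held 17 cells. The steps differed in depth as well, with median UMIs of 3063, 4077, 5846.5, 9935 and 8510 after photoconversion and 2711, 4064, 5594, 8330 and 7049.5 in the control, and the part of depth was not tested.

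**Figure D4:**
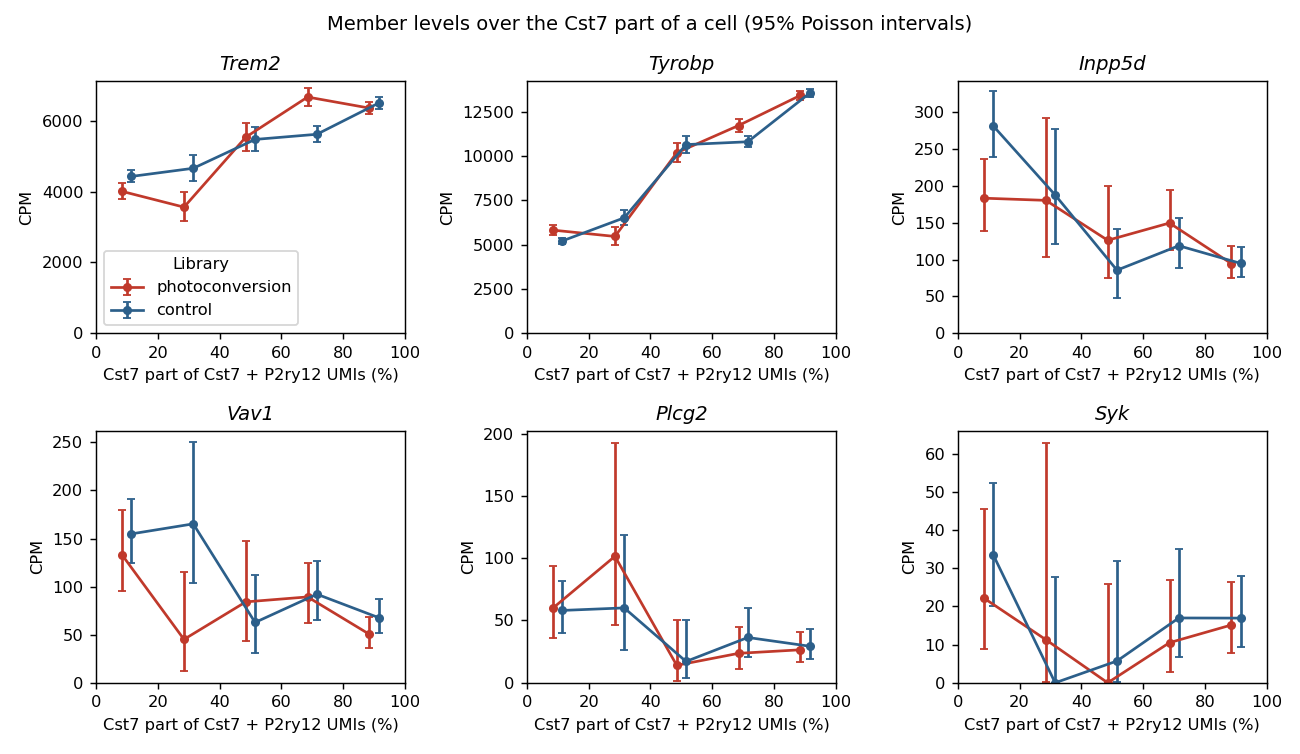
Level in CPM (vertical axis, starting at 0) of 6 of the genes over the Cst7 part of the summed Cst7 and P2ry12 UMIs of a cell, in 5 steps of 20% (horizontal axis), in the photoconversion (red) and control (blue) library, with 95% Poisson intervals. Tyrobp stands at 13426 and 13551 in the highest step, against 5815 and 5208 in the lowest, Trem2 spans less, and Inpp5d is lower in CPM at the Cst7 end.

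Cell to cell, receptor and adaptor varied together within Cst7-dominant cells. Cells were thinned to 1000 UMIs, which gives each the same number of counts and left 272 photoconversion and 439 control cells. It does not remove the relation of a level to the depth a cell had before thinning. Trem2 then had a mean of 5.30 UMIs per cell after photoconversion and 4.88 in the control, and a variance of 2.19 and 2.28 times the mean. Tyrobp had means of 9.06 and 8.14, with a variance of 3.71 and 3.98 times the mean. In Cst7-dominant cells the Spearman correlation of Trem2 with Tyrobp was 0.37 over 142 photoconversion cells and 0.32 over 183 control cells. In P2ry12-dominant cells it was -0.01 over 119 cells and 0.00 over 232 cells. Thinned to 2000 UMIs, the P2ry12-dominant values were 0.19 and 0.14, and those of Cst7-dominant cells 0.42 and 0.37, over the fewer cells that reach that depth. Tyrobp also had a narrower range in P2ry12-dominant cells, where its thinned mean was 5.29 and 5.13 UMIs, against 12.4 and 12.2 in Cst7-dominant cells. These correlations describe cells that share a library and are given without a test, as is the difference between the classes.

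**Figure D5:**
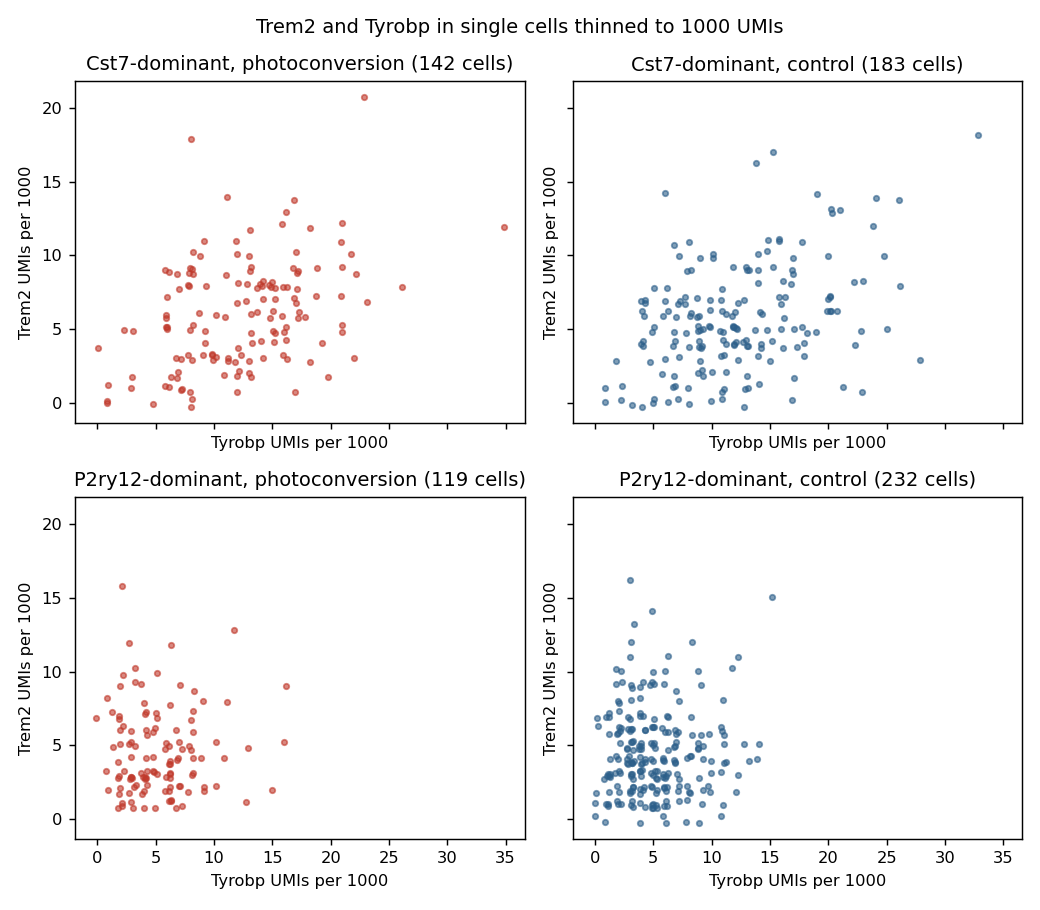
Trem2 UMIs (vertical axis) against Tyrobp UMIs (horizontal axis) in single cells thinned to 1000 UMIs, 1 point per cell with a small random offset to part equal values, for Cst7-dominant (top) and P2ry12-dominant cells (bottom) of the photoconversion (left) and control (right) library. The Cst7-dominant clouds reach further along the Tyrobp axis and lean upward (Spearman 0.37 and 0.32), and the P2ry12-dominant clouds show no lean at this depth (-0.01 and 0.00, against 0.19 and 0.14 thinned to 2000 UMIs).

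Correlations with Trem2 and with Tyrobp across all thinned cells were ranked among 434 genes with enough UMIs. Symbols of mitochondrial, ribosomal (Rps and Rpl) and predicted genes and of pseudogenes were left out before ranking, so the ranks do not cover them. The genes most like Trem2 were Ctsd, with correlations of 0.56 after photoconversion and 0.53 in the control, and Ctsb, with 0.47 and 0.38. Ctsz (0.39 and 0.35), Cd68 (0.41 and 0.34) and Cd9 (0.36 and 0.34) followed. Tyrobp ranked 21 on that list. At the other end stood Tmsb4x, at -0.33 and -0.28, and the actin gene Actb, at -0.18 and -0.21. The genes most like Tyrobp were Cst7 (0.61 and 0.58), which also helped to define the classes, Fth1 (0.40 and 0.40), Cd52 (0.38 and 0.39), Fau (0.38 and 0.37) and Gnas (0.40 and 0.36). Trem2 ranked 25 on that list. The candidates as a whole had median correlations near 0 with either gene. Tyrobp went against P2ry12, at -0.39 and -0.38 across all cells, while Trem2 had 0.04 and 0.10 with it. Within P2ry12-dominant cells Trem2 and P2ry12 had 0.25 and 0.24. For pairs that include Syk, Plcg2, Vav1, Pik3ap1 or Inpp5d, correlations ranged from -0.15 to 0.20 after photoconversion and from -0.12 to 0.09 in the control, on 0 to 94 UMIs per gene after thinning, too few to read.

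Around the 7 genes, 7 lists of 104 partners of the pathway were measured, of which 103 were matched. Between photoconversion and control 77 partners were measured, and 2 were called higher and 7 lower, 11.7% against the 9.61% of all genes. The 2 higher ones, named after their values were seen, were Pik3ca, a catalytic subunit of phosphoinositide 3-kinase, at 1.82 on 30 and 22 UMIs, and Ptpn11, a phosphatase, at 1.64 on 32 and 26 UMIs. Among the 7 lower was Clec4a3, a C-type lectin receptor, at 0.538 (0.404 to 0.710). Also among the 7, and picked after their values were seen, were Vav2 at 0.369 (0.183 to 0.693) and the kinase Btk at 0.579 (0.380 to 0.865). Apoe, a lipoprotein ligand of Trem2, stood at 11257 CPM after photoconversion and 8571 in the control, a ratio of 1.31 (1.29 to 1.34). Fcer1g, the other common adaptor with an activation motif, was at 0.996 (0.966 to 1.03), and Fcgr3, an Fc receptor that uses it, at 0.981 (0.932 to 1.03). The inhibitory receptor Sirpa was at 1.07 (0.989 to 1.16), and the phosphatases Ptpn6 at 0.925 (0.806 to 1.06) and Ptprc at 1.15 (0.977 to 1.34).

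Between the classes 59 partners were measured after photoconversion and 63 in the control. There, 3 were called higher and 28 lower after photoconversion, and 2 higher and 30 lower in the control, 52.5% and 50.8% against 41.2% and 43.5% of all genes. As for the effectors, these are values in CPM, and lower calls were the more common among all genes as well, at 27.6% and 32.2%. Apoe was higher in Cst7-dominant cells, at 14310 CPM against 2975 in P2ry12-dominant photoconversion cells, a ratio of 4.81 (4.55 to 5.08), and at 12076 against 2993 in the control, a ratio of 4.03 (3.87 to 4.21). Hcst, also called DAP10, a partner of Tyrobp that recruits phosphoinositide 3-kinase, was higher too, with ratios of 3.53 (2.41 to 5.37) and 2.30 (1.79 to 2.97). The third higher call after photoconversion, named after its value was seen, was Nfatc1 at 1.86, which was at 0.757 in the control.

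Of 11 other receptors and adaptors measured in each library, 4 were lower after photoconversion and 5 in the control, and Hcst was the 1 higher in either. Fcer1g hardly differed between the classes, with ratios of 1.07 (1.01 to 1.13) and 1.07 (1.03 to 1.12). Clec4a3 had 0.0892 (0.0459 to 0.162) and 0.127 (0.0827 to 0.190). Fcgr3 had 0.701 (0.646 to 0.761) and 0.649 (0.607 to 0.694). Siglech, a receptor that signals through Tyrobp and is also one of the microglia markers used here, was at 0.616 and 0.528 and was picked after its values were seen.

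The Src-family kinase Lyn, which can phosphorylate activation motifs, stood at 143 CPM in Cst7-dominant and 402 in P2ry12-dominant photoconversion cells, a ratio of 0.355 (0.288 to 0.437). In the control it stood at 160 and 411, a ratio of 0.388 (0.328 to 0.460). Of 9 adaptors and exchange factors, 1 was lower after photoconversion and 4 in the control. Fyb, an adaptor to the actin cytoskeleton, had 0.584 (0.460 to 0.745) and 0.490 (0.397 to 0.604), and Lat2, a membrane scaffold, 1.22 (0.975 to 1.55) and 1.39 (1.15 to 1.70).

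In the list of phosphoinositide 3-kinase, AKT and mTOR, 3 of 6 measured genes were lower after photoconversion and 3 of 8 in the control. Pik3r1, a regulatory subunit, had 0.372 (0.245 to 0.564) and 0.400 (0.282 to 0.562). Pik3cg, a catalytic subunit, had 0.976 (0.529 to 1.90) and 0.851 (0.544 to 1.35), Gsk3b 0.606 (0.427 to 0.868) and 0.695 (0.506 to 0.956), and Rheb, an activator of mTOR, 1.16 (0.844 to 1.62) and 0.995 (0.773 to 1.29). In the list of calcium, protein kinase C and CARD9, 6 of 8 were lower after photoconversion and 4 of 8 in the control. Prkcd, a protein kinase C that Plcg2 products activate, had 0.501 (0.358 to 0.705) and 0.377 (0.287 to 0.492), and Prkca 0.357 (0.199 to 0.640) and 0.120 (0.0606 to 0.221). Mapk3, also called ERK1, had 1.43 (1.02 to 2.03) and 1.06 (0.827 to 1.36).

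Of 11 inhibitory receptors, phosphatases and ubiquitin ligases, 4 were lower after photoconversion and 6 in the control, with none higher, where 27.6% and 32.2% of all genes were lower. Cd300a, an inhibitory receptor for phospholipids, had 0.308 (0.224 to 0.424) and 0.337 (0.262 to 0.432). Sirpa had 0.702 (0.620 to 0.796) and 0.652 (0.586 to 0.725), Ptpn6 1.06 (0.832 to 1.37) and 0.939 (0.780 to 1.13), and Ptprc 0.959 (0.739 to 1.26) and 0.927 (0.739 to 1.17). Of 12 ligands and genes of shedding and trafficking, 8 were lower after photoconversion and 6 in the control, with Apoe the 1 higher. Ms4a6b, of a family linked to Trem2 levels, had 0.160 (0.0923 to 0.270) and 0.106 (0.0623 to 0.172). Psenen, a subunit of the protease that clears the cleaved receptor stub, had 0.902 (0.744 to 1.10) and 0.914 (0.781 to 1.07). The median log2 class ratio was below the median of all genes in 6 of the 7 lists after photoconversion and in all 7 in the control, ranging from -1.19 to -0.02 after photoconversion and from -0.81 to -0.37 in the control.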

How the data were processed

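Sorted cortical cells, 3 mice pooled per library, were profiled by droplet single-cell RNA sequencing, 1 library per group. The files as deposited hold unscaled UMI counts. The submitters' processing notes name bcl2fastq, Cell Ranger and the build mm10, and Cell Ranger was version 3.0.2 per the file headers. No normalization by the authors is recorded in them. Each library held 2000 barcodes, 2038693 UMIs after photoconversion and 2672902 in the control.

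Barcodes with at least 200 genes and at most 10% mitochondrial UMIs were kept, and doublets were not removed. UMIs were summed per library or class and scaled to 1000000. Cells with equal Cst7 and P2ry12 UMIs, 27 and 58 in number, entered neither class. Classed cells whose counts differed by 1 UMI were 31 of 290 and 57 of 497. Sums carry exact Poisson, ratios exact conditional binomial and shares exact Clopper-Pearson intervals at 95%. Cells were thinned to 1000 UMIs with seed 1, leaving out 45 photoconversion and 116 control cells. The ratio, thinning and correlation steps were tested on simulated data. The 7 genes and all lists were chosen with earlier results of these data known. Of each list, the 2 genes with the most UMIs and those with the largest and smallest class ratio were named. One list entry, Clec7a, is not analysed here, and the values of 1 named gene are not reported here. Genes were matched by symbol, and coordinates by Ensembl identifier in the GENCODE annotation of mm10.

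Alternatives covered the filters, the call rule, scaling (edgeR 4.0.16 TMM and DESeq2 1.42.0 size factors, with no count test), thinning, class rule, Scrublet calls in scanpy 1.11.5 (5 of 317 and 28 of 555 cells), the richest cells and marker-led cells. Classes weighed equally, UMIs per cell and cells of 2000 to 8000 UMIs were added after seeing the data.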

Additional observations from a re-analysis of the deposited data

Results flagged for a closer look

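Photoconversion and control stood in opposite order in the 2 classes of cells for 3 of the 5 members measured in each class. In each case the difference was not tested. The share of all genes in opposite order was not counted, so this is not read as a trait of the members. Of all measured genes, 48.0% were higher after photoconversion in Cst7-dominant cells and 41.9% in P2ry12-dominant cells. For Trem2 the ratio of photoconversion to control was 1.04 (1.01 to 1.07) in Cst7-dominant and 0.933 (0.882 to 0.987) in P2ry12-dominant cells, a difference of 0.16 in log2 ratio. For Inpp5d, the phosphatase, the ratios were 1.09 (0.863 to 1.38) and 0.731 (0.561 to 0.945), a difference of 0.58. For Plcg2 they were 0.860 (0.529 to 1.38) and 1.09 (0.660 to 1.76), a difference of -0.34, with intervals that hold 1 on both sides.

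Barcodes that were left out of the cells also carried Trem2 and Tyrobp, at unequal levels in part of them. The share of all genes at unequal levels in these barcodes was not counted. In barcodes over 10% mitochondrial UMIs, 75 after photoconversion and 105 in the control, the ratio of photoconversion to control was 1.23 (1.05 to 1.43) for Trem2 and 1.22 (1.08 to 1.38) for Tyrobp. In barcodes under 200 genes, 1608 and 1340, it was 1.12 (1.01 to 1.26) for Tyrobp and 1.04 (0.907 to 1.19) for Trem2, an interval that holds 1. These compare with 1.07 and 1.11 for Trem2 and Tyrobp in the kept cells. Among the barcodes over 10% mitochondrial UMIs, the 10 richest held 56.0% of the Trem2 UMIs after photoconversion and 37.9% in the control. For Tyrobp the 10 richest held 63.5% and 55.3%.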

How the results depend on the processing

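Between photoconversion and control, 0 members were called, and 1 was called with no minimum of UMIs, with each cell weighed equally, after thinning and without the 10 richest cells, and 2 at a 1.2-fold limit. Vav1 stood at 0.507 with each cell weighed equally, and Inpp5d at 0.652 after thinning. The share of all genes called under each alternative is not given here, so the counts in this paragraph describe the members only. Between the classes of the photoconversion library the count of 5 was 3 under TMM, median-of-ratios scaling, without mitochondrial and ribosomal genes, at most 5% mitochondrial UMIs, without the 10 richest cells, with classes from thinned counts, in UMIs per cell and in cells of 2000 to 8000 UMIs (3 measured), and 1 after thinning (2 measured). In the control the count of 4 was 2 after thinning (3 measured) and in UMIs per cell. Among called values, directions turned in UMIs per cell only, where the log2 class ratios were 0.59 and 0.30 for Vav1 and 0.55 and 0.017 for Inpp5d after photoconversion and in the control, and 0.33 for Plcg2 in the control. The Trem2 and Tyrobp correlation, thinned to 2000 UMIs, was 0.52 and 0.42 over all cells and 0.19 and 0.14 in P2ry12-dominant cells. The cause of these changes was not tested. Of the values of single genes under the alternatives, 217 stayed within their counting interval, 65 moved beyond it and 5 are those that turned. The class shares moved by less than their intervals under every alternative run. No paired analysis was possible because each group had 1 library, and no replicate could be left out. Depth limits Syk, Plcg2 and Pik3ap1 most, since thinning leaves 11 and 16 Plcg2 UMIs.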
